A study of Mus musculus with 12 samples.

Results

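Fatty acid uptake and binding in mouse liver was followed through 10 genes, listed by name for what their proteins do, with earlier results of these data known. They were Cd36, Slc27a2, Slc27a4 and Slc27a5 at membranes, Lpl and Vldlr of triglyceride delivery, and Fabp1, Fabp2, Fabp4 and Fabp5 of the cytosol, 10 of the 55471 genes in the count table. All 10 passed the filter on low counts, which left 13866 genes to be tested. RNA from the livers of C57BL/6 mice was sequenced in 4 groups of 3 libraries: a standard diet, a diet that induces metabolic dysfunction-associated steatotic liver disease (MASLD diet), the MASLD diet with 0.1x Aza-TdC, and the MASLD diet with 1x Aza-TdC. Aza-TdC is a deoxycytidine analogue that depletes the maintenance DNA methyltransferase DNMT1. The labels give the dose only as 0.1x and 1x. The sources used here do not give the absolute dose, the makeup of the diets, the vehicle, or the age and sex of the mice. Nor do they say that each library came from its own mouse, so a p-value weighs a difference against a spread between libraries that may be technical.

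Long-chain fatty acids reach hepatocytes bound to albumin or inside lipoproteins. CD36 and the fatty acid transport proteins of the SLC27 family help them across membranes, and most SLC27 proteins also attach coenzyme A to them. Lipoprotein lipase (LPL) frees fatty acids from circulating triglycerides, and the VLDL receptor binds lipoproteins that carry them. Inside the cell, fatty acid binding proteins (FABPs) hold fatty acids in solution and pass them on. FABP1 is the main liver form, FABP2 is best known from intestine, FABP4 from adipocytes and macrophages, and FABP5 from skin and many other tissues. Healthy adult liver makes little LPL. Peroxisome proliferator-activated receptors (PPARs), which sense fatty acids, are known regulators of several of these genes.

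Promoter sequence is shown for 3 members, since Fabp1 and Fabp2 differed together between the doses while Cd36 rose with diet. RefSeq promoter windows (GRCm38.p6, the assembly that mm10 names) of 300 bases, starting 250 bases before each gene's start, were at hand for Cd36, Slc27a2, Slc27a4, Fabp1, Fabp2 and Vldlr. The stretches below are the 120 bases before the start, read 5′ to 3′ on the gene's strand. They are chr6:71199759-71199878 (plus strand) for Fabp1, chr5:17835897-17836016 (minus strand) for Cd36 and chr3:122894952-122895071 (plus strand) for Fabp2. The starts used for Cd36, Fabp1 and Slc27a2 lie inside the annotated spans of these genes, that of Cd36 at an alternative start. Vldlr had a window at the start of its span and another whose start lies inside the span. The Fabp1 span begins at 71199827, so the last part of its stretch lies within the gene. Capitals mark matches to the PPAR-type direct repeat AGGTCANAGGTCA with up to 2 mismatches in its 12 fixed bases, and to its part AGGTCA, on either strand.
Fabp1: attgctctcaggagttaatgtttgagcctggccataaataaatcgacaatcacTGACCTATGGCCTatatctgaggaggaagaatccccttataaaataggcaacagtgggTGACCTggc
Cd36: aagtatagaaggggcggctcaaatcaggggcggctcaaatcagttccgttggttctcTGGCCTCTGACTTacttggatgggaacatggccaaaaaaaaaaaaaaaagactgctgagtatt
Fabp2: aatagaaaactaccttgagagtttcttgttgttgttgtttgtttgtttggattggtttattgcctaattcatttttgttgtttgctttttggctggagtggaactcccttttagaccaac

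The Fabp1 stretch held the direct repeat on the opposite strand, from −67 to −55, with 1 mismatch, and AGGTCA on that strand at −67 (inside the repeat) and −9. The match at −9 lies within the gene's annotated span. The Cd36 stretch held it on the opposite strand from −63 to −51, with 2 mismatches. Of 32851 RefSeq promoter windows of the same length, 0.554% held the repeat with at most 1 mismatch and 3.86% with at most 2, and 16.3% held AGGTCA. Neither motif was found in the windows of Fabp2, Slc27a4 or Vldlr, and that of Slc27a2 held AGGTCA alone, at −220. The Cd36 window also held AGGTCA on the opposite strand at −228, outside the stretch shown. A match of letters is a description of the sequence and not a binding site.

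Totals ran from 30213048 to 41852606 counts per library, and values are given as CPM, a gene's count relative to its library's total, with totals scaled by TMM factors. Scaling by raw totals instead would add 0.359 to every log2 fold change between the MASLD and the standard diet and −0.135 to those between 0.1x and the MASLD diet, so changes are relative to the bulk of genes. In each library a gene's deviation from its mean was partly a smooth function of its GC content and transcript length. That trend held 23.6% of the variance in 0.1x library 3, 19.7% in 1x library 2, 13.2% in MASLD library 5 and at most 9.79% in the others. Removing it left most diet changes in place but moved several drug comparisons, and those values are given beside the results. Among the standard-diet libraries, library 3 stood apart, with a chi-square per degree of freedom of 104 and 101 against the other two, which differed from each other by 26.8. The liver label fitted its markers: all 8 matched hepatocyte markers were detected, with summed levels of 89392 to 185322 CPM. In bulk RNA, fewer cells of a type and less RNA per cell cannot be told apart.

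**Figure D1:**
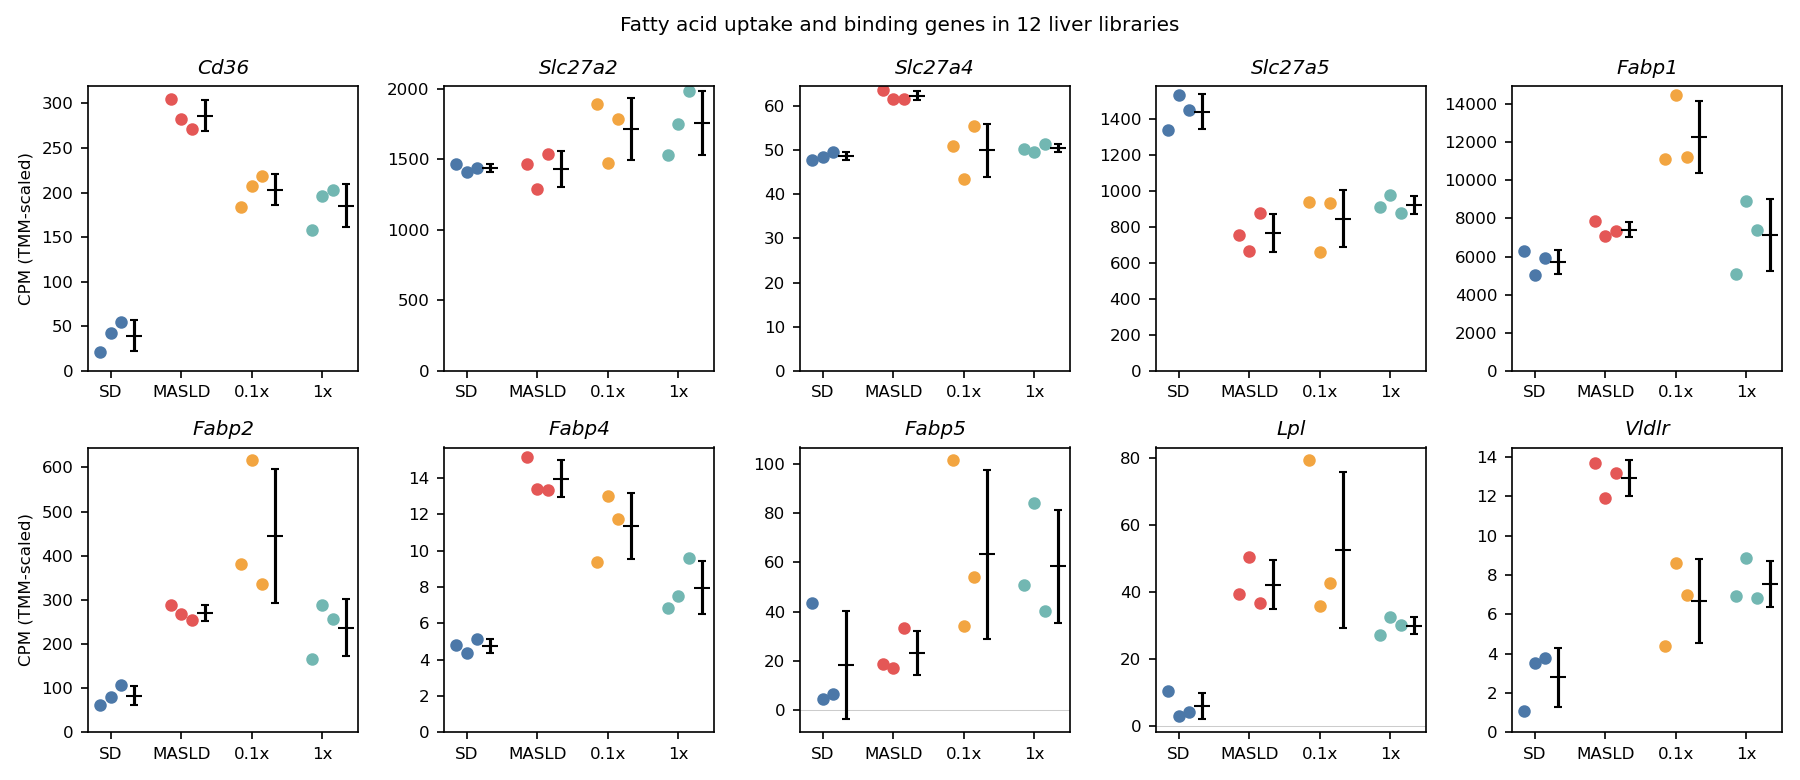
TMM-scaled CPM (vertical axis from 0, or just below it where an error bar reaches lower) of the 10 genes in each of the 12 libraries, in replicate order within standard diet (SD), MASLD diet, MASLD diet with 0.1x and with 1x Aza-TdC. Points are libraries and bars show mean ± standard deviation (n = 3). Cd36, Lpl, Vldlr, Fabp2 and Fabp4 lie above every standard-diet library in all 9 MASLD-diet libraries, and Slc27a5 below.

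On the MASLD diet most of these genes were higher than on the standard diet, both without drug. Cd36 rose 7.23-fold, Lpl 7.13-fold, Vldlr 4.55-fold, Fabp2 3.25-fold and Fabp4 2.92-fold, while Slc27a5 fell to 0.532 of its standard-diet level. In all 6 of the 10 genes rose and 1 fell at an adjusted p under 0.05 (edgeR's quasi-likelihood test, Benjamini-Hochberg over all genes tested). By the same call 29.5% of all genes changed, 15.6% up and 13.9% down. The median log2 fold change was 0.96 over the 10 genes and 0.03 over all genes tested. In 7 genes every MASLD library was above every standard-diet library, and in 1 every one was below, against 25.1% and 22.8% of all genes. The 10 genes together took 0.707% to 0.789% of all counts on the standard diet and 1.12% to 1.16% on the MASLD diet.

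Among the membrane proteins, Cd36 was higher in every MASLD library. Cd36 (ENSMUSG00000002944, mm10 chromosome 5, 17781690 to 17888801, minus strand) encodes the scavenger receptor and fatty acid translocase. It stood at 21.4, 42.0 and 55.2 CPM in standard-diet libraries 3, 4 and 5, at 305, 282 and 271 CPM in MASLD libraries 3, 4 and 5, at 184, 207 and 218 CPM in 0.1x libraries 1, 3 and 4, and at 158, 196 and 203 CPM in 1x libraries 2, 4 and 5. The standard-diet libraries were lowest and the untreated MASLD libraries highest, with no overlap between either and the treated ones. With diet it rose by 2.85 ± 0.25 on the log2 scale (± SE; adjusted p = 1.74e-06 by edgeR). The difference from the untreated MASLD diet was −0.49 (95% interval −0.99 to 0.00, adjusted p = 0.160) at 0.1x and −0.63 (−1.12 to −0.13, adjusted p = 0.169) at 1x, and neither passed. Against the standard diet both treated groups were still higher, by 2.36 ± 0.24 at 0.1x and 2.23 ± 0.24 at 1x (edgeR adjusted p = 1.40e-05 and 2.77e-05).

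The 2 SLC27 genes with the highest counts parted with diet. Slc27a5 (ENSMUSG00000030382, chromosome 7, 12988346 to 12998192, minus strand) encodes FATP5, a liver transport protein that also activates bile acids. It stood at 1339, 1533 and 1450 CPM on the standard diet, at 756, 664 and 879 CPM on the MASLD diet, at 935, 661 and 935 CPM with 0.1x and at 910, 979 and 879 CPM with 1x. The 9 libraries of the MASLD diet, treated or not, all lay below the 3 others. It fell by 0.91 ± 0.15 with diet (edgeR adjusted p = 0.000426), and remained lower than on the standard diet by −0.77 ± 0.15 at 0.1x and −0.64 ± 0.15 at 1x (adjusted p = 0.00238 and 0.00752). All 8 hepatocyte markers also fell with diet, where 13.9% of all genes did. Their summed levels went from 170421 to 185322 CPM to 89392 to 110721 CPM. Most of these sums was Alb, at 111965 to 126258 CPM on the standard diet and 60103.5 to 76236.5 CPM on the MASLD diet. The part of these markers in the fall of Slc27a5 was not tested.

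Slc27a2 (ENSMUSG00000027359, chromosome 2, 126552407 to 126588243, plus strand) encodes FATP2, a very long-chain acyl-CoA synthetase and transporter. Its values were 1465, 1407 and 1439 CPM on the standard diet, 1468, 1289 and 1539 CPM on the MASLD diet, 1893, 1470 and 1786 CPM with 0.1x, and 1528, 1752 and 1984 CPM with 1x. The diet groups overlapped, with a log2 difference of 0.00 (95% interval −0.29 to 0.29, edgeR adjusted p = 0.985). Both treated groups lay above the standard-diet libraries without passing (0.26 and 0.29, adjusted p = 0.203 and 0.153). It shares 421 identical bases with the overlapping lincRNA Gm26697, and reads from these cannot be told apart.

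The ratio of Slc27a2 to Slc27a5 counts, which no library scaling can move, was 1.09, 0.918 and 0.993 on the standard diet. It was 1.94, 1.94 and 1.75 on the MASLD diet, 2.02, 2.22 and 1.91 with 0.1x, and 1.68, 1.79 and 2.26 with 1x. Every MASLD-diet library was above every standard-diet library. The ratio was 1.88 times higher on the MASLD than on the standard diet, with an exact two-sided permutation p of 0.1, the smallest that 3 against 3 libraries allow. Between 0.1x or 1x and the untreated MASLD diet the exact permutation p was 0.3 and 0.9, and the groups overlapped.

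Slc27a4 (ENSMUSG00000059316, chromosome 2, 29802634 to 29817522, plus strand) encodes FATP4, a widely expressed member. It was at 47.8, 48.3 and 49.6 CPM on the standard diet, 63.5, 61.6 and 61.6 CPM on the MASLD diet, 51.0, 43.5 and 55.3 CPM with 0.1x, and 50.3, 49.6 and 51.4 CPM with 1x. The 3 untreated MASLD libraries were the highest of the 12. The rise with diet was 0.36 ± 0.10 (edgeR adjusted p = 0.0163). Once the GC and length trend was taken out it was 0.21 (adjusted p = 0.0608). Without MASLD library 3 or 4 the adjusted p was 0.0606 or 0.0520. The differences of −0.32 at 0.1x (95% interval −0.53 to −0.10, adjusted p = 0.0513) and −0.30 at 1x (−0.52 to −0.09, adjusted p = 0.131) did not pass, and the first was −0.07 with the trend removed.

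Of triglyceride delivery, both genes rose with diet from low levels. Lpl (ENSMUSG00000015568, chromosome 8, 68880491 to 68907448, plus strand) was at 10.4, 3.10 and 4.33 CPM on the standard diet, 39.4, 50.4 and 36.7 CPM on the MASLD diet, 79.2, 35.9 and 42.6 CPM with 0.1x, and 27.3, 32.4 and 30.1 CPM with 1x. The highest library of all was 0.1x library 1, and the 1x libraries lay below all others of the MASLD diet. The rise with diet was 2.83 ± 0.37 (edgeR adjusted p = 5.43e-05), and 3.50 without standard-diet library 3, the highest of its group. At 0.1x the difference from the untreated MASLD diet was 0.32 (95% interval −0.39 to 1.02, adjusted p = 0.548), and without library 1 it was −0.10. At 1x it was −0.49 (−1.20 to 0.21, adjusted p = 0.501), and between the doses −0.81 (−1.52 to −0.10, adjusted p = 0.115), so none of the drug differences passed.

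Vldlr (ENSMUSG00000024924, chromosome 19, 27216484 to 27254231, plus strand), the VLDL receptor gene, rested on 32 to 497 counts per library. It was at 1.09, 3.55 and 3.81 CPM on the standard diet, 13.7, 11.9 and 13.2 CPM on the MASLD diet, 4.40, 8.63 and 6.98 CPM with 0.1x, and 6.94, 8.88 and 6.82 CPM with 1x. The treated libraries lay between the other groups without touching either. The rise with diet was 2.19 ± 0.33 (edgeR adjusted p = 0.000199). The differences from the untreated MASLD diet were −0.95 (95% interval −1.61 to −0.30, adjusted p = 0.0527) at 0.1x and −0.78 (−1.42 to −0.13, adjusted p = 0.194) at 1x. With the trend removed the first was −0.62 (adjusted p = 0.337), while DESeq2 gave −0.94 with an adjusted p of 0.0224.

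The cytosolic binding proteins did not follow 1 pattern. Fabp1 (ENSMUSG00000054422, chromosome 6, 71199827 to 71205023, plus strand), the liver form, supplied 98.0% to 98.3% of the counts of the 4 FABP genes on the standard diet and 95.6% to 96.5% in the other libraries. It was at 6266, 5038 and 5906 CPM on the standard diet, 7845, 7051 and 7342 CPM on the MASLD diet, 11099, 14472 and 11236 CPM with 0.1x, and 5103, 8887 and 7387 CPM with 1x. The 3 libraries with 0.1x were above the other 9. With diet the difference was 0.37 (95% interval −0.03 to 0.77, edgeR adjusted p = 0.153), although the groups did not overlap, and with the trend removed it was 0.73 (adjusted p = 0.00174).

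Fabp2 (ENSMUSG00000023057, chromosome 3, 122895072 to 122899506, plus strand), the intestinal form, had the same order of groups. Its values were 63.2, 79.8 and 107 CPM on the standard diet, 289, 269 and 255 CPM on the MASLD diet, 381, 617 and 336 CPM with 0.1x, and 166, 289 and 257 CPM with 1x. The highest library was 0.1x library 3 and the lowest of the MASLD diet 1x library 2, those with the strongest GC and length trend. Fabp2 rose by 1.70 ± 0.25 with diet (edgeR adjusted p = 0.000151), and by 2.01 with the trend removed. Enterocyte markers were at 0 in every MASLD-diet library, and on the standard diet their sum was at most 0.0317 CPM. The antisense gene 4933405D12Rik overlaps Fabp2, and whether counting used strand is not given in the sources used here.

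Fabp4 (ENSMUSG00000062515, chromosome 3, 10204088 to 10208576, minus strand), the adipocyte and macrophage form, was at 4.81, 4.37 and 5.15 CPM on the standard diet, 15.1, 13.4 and 13.4 CPM on the MASLD diet, 9.39, 13.0 and 11.7 CPM with 0.1x, and 6.85, 7.49 and 9.59 CPM with 1x. Every 1x library was above the standard diet and below the untreated MASLD diet. These levels rested on 138 to 545 counts per library. The rise with diet was 1.55 ± 0.16 (edgeR adjusted p = 9.05e-06). With 1x it was still 0.74 ± 0.16 above the standard diet (adjusted p = 0.00536).

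Fabp5 (ENSMUSG00000027533, chromosome 3, 10012548 to 10016607, plus strand), the epidermal form, varied most within groups. It was at 43.4, 4.46 and 6.48 CPM on the standard diet, 18.7, 17.1 and 33.4 CPM on the MASLD diet, 101, 34.4 and 54.0 CPM with 0.1x, and 50.9, 84.2 and 40.1 CPM with 1x. Standard-diet library 3 stood far above the other two and inside the range of the treated libraries. The diet difference was 0.36 ± 0.63 (95% interval −0.998 to 1.71, edgeR adjusted p = 0.706), and without that library it was 2.07 (adjusted p = 0.00412). Both treated groups were above all untreated MASLD libraries, by 1.45 at 0.1x (0.10 to 2.81, adjusted p = 0.134) and 1.34 at 1x (−0.01 to 2.69, adjusted p = 0.297), and neither passed. Against the standard diet the differences of 1.81 and 1.69 did not pass (adjusted p = 0.0598 and 0.0773), and without standard-diet library 3 they were 3.52 and 3.41 (adjusted p = 0.000202 and 0.000287). Fabp5 has 5 processed pseudogenes with 93.6% to 98.3% identity over 336 to 409 bases, of which 2 held 10 and 29 counts over the 12 libraries and the other 3 held 0, so shared reads could be split.

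**Figure D2:**
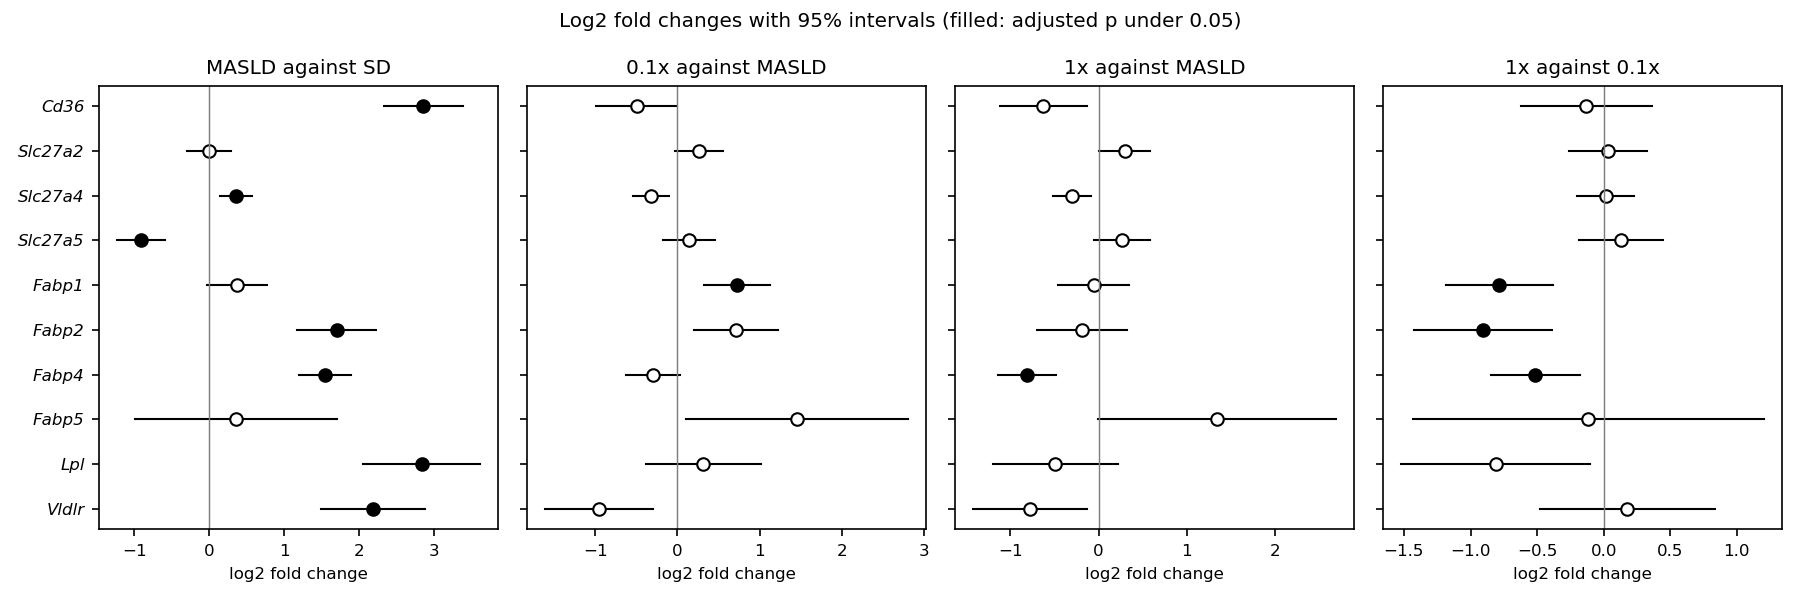
Log2 fold changes (horizontal axes, scaled separately) of the 10 genes in 4 comparisons, with 95% intervals, where SD is the standard diet. Filled points have an edgeR adjusted p under 0.05: 7 genes with diet, Fabp1 at 0.1x, Fabp4 at 1x, and Fabp1, Fabp2 and Fabp4 between the doses.

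Levels of different genes were compared per length, as CPM per kilobase of the exon union. Fabp1 was highest in all 4 groups, at 10374 ± 1141 (SD, n = 3) on the standard diet and 13404 ± 726 on the MASLD diet. On the standard diet Slc27a5 (591 ± 40.1), Slc27a2 (383 ± 7.69) and Fabp2 (86.4 ± 23.0) followed. Cd36 (11.0 ± 4.75) and Slc27a4 (11.0 ± 0.217) did not differ beyond their spread, nor did Fabp5 (5.08 ± 6.15) from either. Fabp4 (1.06 ± 0.0868), Lpl (0.568 ± 0.373) and Vldlr (0.280 ± 0.149) were lowest, the last pair within their spread.

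On the MASLD diet Slc27a2 (382 ± 34.3) stood above Slc27a5 (314 ± 44.1) by more than either SD, and Cd36 (79.7 ± 4.90) was clear of Slc27a4 (14.1 ± 0.240). Lpl was at 4.03 ± 0.691 and Fabp4 at 3.11 ± 0.229 per kilobase of the exon union. With 0.1x Fabp2 (461 ± 157) and Slc27a2 (457 ± 58.6) did not differ beyond their spread, and Slc27a5 (346 ± 64.9) was below Slc27a2 but not beyond the spread of Fabp2. With 1x the order was Slc27a2 (467 ± 60.7), Slc27a5 (379 ± 21.1) and Fabp2 (246 ± 66.4). The order of the low genes depends on which transcript is made. With the principal transcript, 896 bases for Fabp4 against an exon union of 4489, Fabp4 came to 15.6 ± 1.15 on the MASLD diet. Fabp5 came to 23.4 ± 9.11 (987 against 3567 bases) and Lpl to 10.2 ± 1.76.

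The low dose, 0.1x Aza-TdC against the untreated MASLD diet, was followed by higher Fabp1. Fabp1 rose 1.66-fold (0.73 ± 0.19 on the log2 scale, edgeR adjusted p = 0.0245), and it was the 1 gene of the 10 that passed, where 13.2% of all genes did, 6.08% as higher and 7.09% as lower. Slc27a4, Vldlr and Fabp2 stood just outside the threshold, Fabp2 with 0.72 (95% interval 0.20 to 1.23, adjusted p = 0.0612). Fabp1, Fabp2 and Fabp5 were higher than every untreated MASLD library in each 0.1x library, and Cd36, Slc27a4, Fabp4 and Vldlr lower in each, 3 and 4 genes of 10 where 16.8% and 18.7% of all genes were so. The median log2 difference over the 10 genes was 0.20, and −0.02 over all genes tested.

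The rise of Fabp1 at 0.1x moved with the GC and length trend. The trend's part of Fabp1 was 0.27, 0.57 and 0.19 (log2) in 0.1x libraries 1, 3 and 4 and −0.18, −0.24 and −0.30 in MASLD libraries 3, 4 and 5. With it removed, the Fabp1 difference was 0.13 (edgeR adjusted p = 0.667) and that of Fabp2 0.18 (adjusted p = 0.584), while Fabp4 was lower by −0.84 (adjusted p = 0.0214). Without MASLD library 3, 4 or 5 or 0.1x library 3, the adjusted p of Fabp1 was 0.0606 to 0.0827. DESeq2 called 4 of the 10 genes, Slc27a4, Vldlr, Fabp1 and Fabp2.

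The full dose, 1x Aza-TdC against the untreated MASLD diet, was followed by lower Fabp4. Fabp4 fell by 0.81 ± 0.16 on the log2 scale, to 0.571 of its untreated level (edgeR adjusted p = 0.0133), with no overlap between the libraries. It was the 1 gene of the 10 that passed, where 3.11% of all genes did, 1.49% as higher and 1.62% as lower. Cd36, Slc27a4, Fabp4, Lpl and Vldlr were lower in each 1x library than in every untreated MASLD library, and Slc27a5 and Fabp5 higher, 5 and 2 genes of 10 where 14.3% and 13.5% of all genes were so. Fabp1 was at −0.06 (95% interval −0.46 to 0.34, adjusted p = 0.931), Fabp2 at −0.19 (−0.70 to 0.32, adjusted p = 0.777), Slc27a2 at 0.29 (0.00 to 0.58, adjusted p = 0.287) and Slc27a5 at 0.27 (−0.05 to 0.58, adjusted p = 0.385).

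With the trend removed the fall of Fabp4 at 1x was −0.87 (edgeR adjusted p = 0.00981). Without MASLD library 3 or 4 or 1x library 2 or 4 it was −0.74, −0.83, −0.71 and −0.76, with adjusted p-values of 0.0705, 0.0540, 0.0659 and 0.0619. The summed level of 6 markers of lipid-associated macrophages was 44.8 to 83.8 CPM in the untreated MASLD libraries, 53.5 to 59.3 CPM with 0.1x, 29.5 to 41.0 CPM with 1x and 23.9 to 26.9 CPM on the standard diet. Cd9 was the largest part of this sum, with means of 34.5 CPM on the untreated MASLD diet, 43.4 CPM with 0.1x and 26.9 CPM with 1x. Every other marker of the 6 had a lower mean at both doses than on the untreated MASLD diet. The median log2 difference of the 6 was −0.90 at 0.1x and −1.61 at 1x. All 6 of these markers passed as higher with diet, where 15.6% of all genes did, but that count is not read as a result. Gpnmb and Mmp12 were at most 0.145 and 0.174 CPM on the standard diet. Trem2 and Itgax went down to 0.145 and 0.158 CPM there. These genes passed the filter through libraries in which they were higher, so their rise is not counted as a result. Of the 6, 1 passed as lower at 0.1x and 1 at 1x, where 7.09% and 1.62% of all genes did. The 6 include genes that passed the filter in that way, so these counts are given only as values. The sum of 8 general macrophage markers was 57.0 to 82.4 CPM on the standard diet, 109 to 171 CPM on the MASLD diet, 131 to 144 CPM with 0.1x and 62.5 to 96.1 CPM with 1x. The sum of 6 stellate cell markers was 175 to 240.4 CPM on the untreated MASLD diet, 142 to 185 CPM with 0.1x and 133 to 155 CPM with 1x. Of these, 1 passed as lower at 0.1x and 1 at 1x. The sum of 6 Kupffer cell markers was 183 to 259 CPM, 209 to 245 CPM and 96.5 to 204 CPM in the same groups. At 1x against the untreated MASLD diet 1 of these 6 passed as lower and 1 as higher, where 1.62% and 1.49% of all genes did. At 1x against 0.1x 3 of the 6 were lower, where 5.86% of all genes were, and 0 higher. The part of these cells in the change of Fabp4 was not tested.

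Adipocyte markers were low throughout, with 6 markers summing to 0.855 to 1.42 CPM on the standard diet, 1.90 to 4.39 CPM on the MASLD diet, 2.28 to 5.37 CPM with 0.1x and 1.22 to 12.8 CPM with 1x. Lep was at 0 in all libraries, and Adipoq and Plin1 were at 0 in all 1x libraries. The highest sum, 12.8 CPM, was in 1x library 5, where Cfd alone gave 11.3 CPM. Of 10 endothelial markers 4 were higher with diet, with sums of 95.4 to 126 CPM on the standard diet and 150 to 172 CPM on the MASLD diet. Higher too were 5 of 6 stellate cell markers (110.0 to 124 CPM on the standard diet) and 3 of 6 Kupffer cell markers (86.3 to 134 CPM). Of all genes 15.6% were higher. The part of these cells in the rise of Lpl, Cd36, Vldlr and Fabp4 was not tested.

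Between the doses, 3 of the 10 genes were lower at 1x than at 0.1x and none was higher, where 13.0% of all genes differed, 5.86% lower and 7.13% higher. All 3 were binding proteins: Fabp1 by −0.78 ± 0.19 (edgeR adjusted p = 0.0187), Fabp2 by −0.91 ± 0.24 (adjusted p = 0.0267) and Fabp4 by −0.51 ± 0.16 (adjusted p = 0.0431). For Fabp1 and Fabp2, as for Lpl, every 1x library was below every 0.1x library, 3 of 10 genes where 14.5% of all genes were so. The values of Fabp4 overlapped between the doses. Cd36 (−0.13, 95% interval −0.62 to 0.36), Slc27a2 (0.03, −0.26 to 0.32), Slc27a4 (0.01, −0.20 to 0.23), Slc27a5 (0.13, −0.19 to 0.45), Fabp5 (−0.12, −1.43 to 1.20) and Vldlr (0.18, −0.48 to 0.84) had adjusted p-values of 0.600 to 0.941.

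None of the 3 dose differences passed with the trend removed, when Fabp1 was at −0.24 (edgeR adjusted p = 0.352), Fabp2 at −0.45 (adjusted p = 0.121) and Fabp4 at −0.03 (adjusted p = 0.947). None passed without 1x library 2, at −0.60, −0.71 and −0.42 (adjusted p = 0.0804, 0.130 and 0.189), or when the 2 doses were fitted alone. Without 1x library 5 Fabp1 and Fabp2 did not pass, nor Fabp2 without 0.1x library 3, nor Fabp4 without 0.1x library 3 or 4 or 1x library 4. Fabp1, Fabp2 and Fabp4 have short principal transcripts (553, 965 and 896 bases), and the trend's part of Fabp4 rests on that length.

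**Figure D3:**
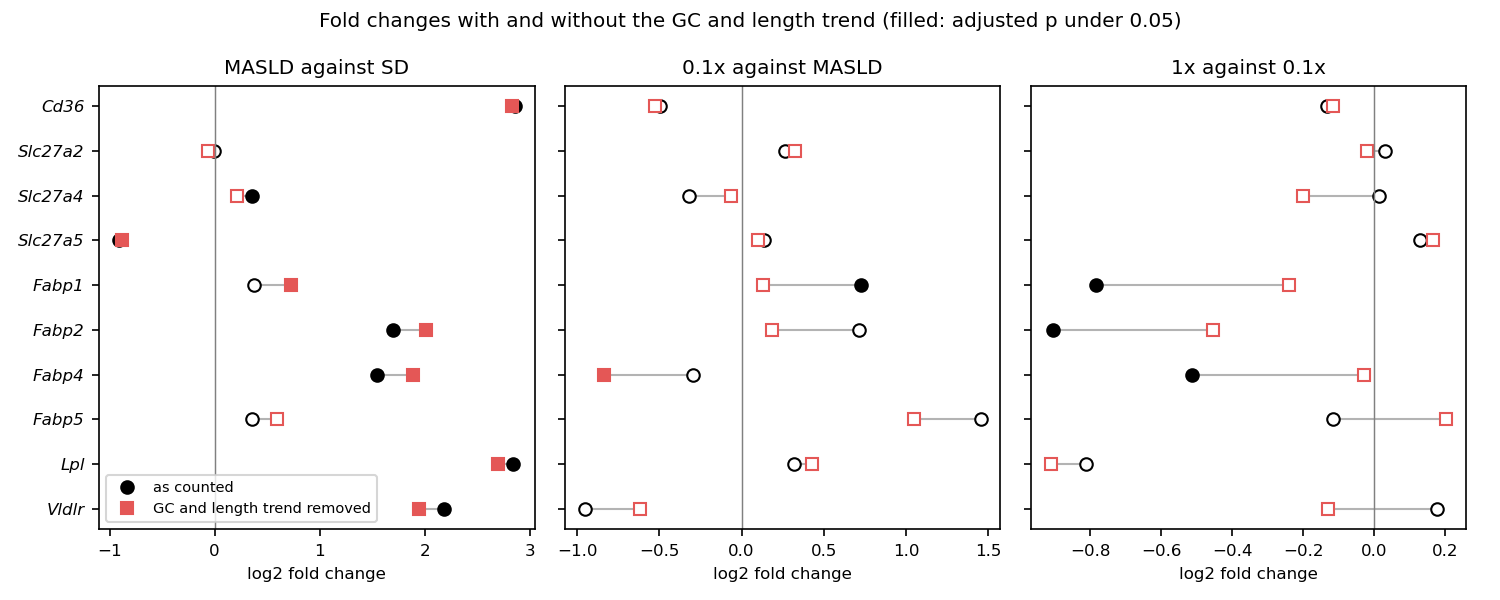
Log2 fold changes (horizontal axes, scaled separately) of the 10 genes as counted (black circles) and with the trend on GC content and transcript length removed (red squares), with diet (SD, standard diet), at 0.1x, and between the doses. Filled symbols have an edgeR adjusted p under 0.05. Fabp1, Fabp2 and Fabp4 move most in both drug comparisons, and Cd36, Lpl and Slc27a5 stay within 0.2 of their values.

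The treated groups were also set against the standard diet, with which they differ in both diet and drug. At 0.1x 7 of the 10 genes passed, where 20.7% of all genes did. Cd36, Fabp1, Fabp2, Fabp4, Lpl and Vldlr were higher, 6 genes where 9.85% of all genes were, and Slc27a5 was lower, where 10.9% were. At 1x 6 passed, where 19.8% did: the genes higher at 0.1x except Fabp1, where 9.91% of all genes were higher, and Slc27a5, where 9.84% were lower. The libraries did not overlap for 7 higher genes and 1 lower gene at 0.1x (15.3% and 16.6% of all genes) and for 6 and 1 at 1x (19.4% and 17.8%). Lpl was higher by 3.15 ± 0.37 and 2.34 ± 0.36 (3.815 and 3.005 without standard-diet library 3), and Fabp2 by 2.42 ± 0.25 and 1.51 ± 0.25. Vldlr was higher by 1.23 ± 0.33 (edgeR adjusted p = 0.0162) at 0.1x and by 1.41 ± 0.33 (adjusted p = 0.00732) at 1x, and the first had an adjusted p of 0.0599 without 0.1x library 3. Fabp1 was higher by 1.10 ± 0.19 at 0.1x (adjusted p = 0.00107) and at 0.31 ± 0.19 at 1x (adjusted p = 0.266). With the trend removed Fabp1 passed at 1x too, with 0.62 (adjusted p = 0.00730). These comparisons share libraries with the ones above and are not independent of them.

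Of 46 other genes of fatty acid uptake, activation, lipoprotein handling and regulation, 38 were tested, and 10 were higher and 10 lower with diet, where 15.6% and 13.9% of all genes were. Of 8 relatives in the same families 4 were tested. Fabp7, the brain form, was higher with diet by 0.97 ± 0.30 and Slc27a1 by 0.79 ± 0.23 (edgeR adjusted p = 0.0251 and 0.0177). Fabp3 and Slc27a3 are given by their values alone, since they passed the filter through the libraries in which they were high, and both stand among the 10 higher genes above. Fabp3, the heart form, had 1, 0 and 0 counts in the standard-diet libraries and 66, 29 and 10 in the MASLD libraries, and skeletal muscle markers summed to at most 0.0655 CPM in any library. Slc27a3 was at 0.0535 ± 0.0513 CPM (SD, n = 3) on the standard diet, 0.453 ± 0.0255 CPM on the MASLD diet, 0.116 ± 0.0479 CPM with 0.1x and 0.195 ± 0.0677 CPM with 1x. Fabp7 was lower at 1x than without drug by −1.27 ± 0.30 (adjusted p = 0.0339). That call was lost on leaving out MASLD library 3 or any 1x library, with adjusted p-values up to 0.181.

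Partners and regulators of lipases went mostly the other way from Lpl with diet. Of 10 tested, 1 was higher and 6 were lower, where 15.6% and 13.9% of all genes were. Lipg, the endothelial lipase, rose by 1.25 ± 0.23 (edgeR adjusted p = 0.000940). Apoc3, which encodes a secreted inhibitor of lipoprotein lipase, fell by 1.18 ± 0.14 (adjusted p = 2.81e-05). Gpihbp1, which anchors the lipase to capillaries, was at 0.37 ± 0.17 (adjusted p = 0.114), and Angptl4, another inhibitor, at −0.28 ± 0.12 (adjusted p = 0.0874). With the trend removed both passed, Gpihbp1 with 0.69 (adjusted p = 0.00445) and Angptl4 with −0.38 (adjusted p = 0.0230). Of 5 lipoprotein receptors tested beside Vldlr none was higher and 3 were lower, where 15.6% and 13.9% of all genes were. Sdc1 was at −0.58 ± 0.10 and Lsr at −0.44 ± 0.16 (edgeR adjusted p = 0.000569 and 0.0489). The call of Lsr was lost on leaving out any 1 of 5 of the 6 libraries (all but standard-diet library 4), with adjusted p-values up to 0.185.

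Fatty acid activation had 2 of 6 genes higher with diet, where 15.6% of all genes were. These were the acyl-CoA synthetases Acsl4 (0.94 ± 0.15, edgeR adjusted p = 0.000316) and Acsl5 (0.40 ± 0.14, adjusted p = 0.0438). The call of Acsl5 was lost on leaving out any 1 library but standard-diet library 3 (adjusted p up to 0.161), and with the trend removed (adjusted p = 0.233). Of 5 other membrane genes 1 was higher, where 15.6% of all genes were. This was Mfsd2a, a lysophospholipid transporter, by 0.91 ± 0.30 (edgeR adjusted p = 0.0321). It was not past the threshold without standard-diet library 5 or MASLD library 4 or 5 (adjusted p up to 0.118). Of 8 regulators of uptake genes 2 were higher and 1 lower with diet, where 15.6% and 13.9% of all genes were. Pparg, the adipogenic PPAR, was at 11.0, 10.7 and 11.7 CPM on the standard diet, 29.0, 29.0 and 23.5 CPM on the MASLD diet, 26.0, 21.4 and 18.5 CPM with 0.1x and 13.3, 18.3 and 20.3 CPM with 1x. It rose by 1.29 ± 0.16 with diet (adjusted p = 4.97e-05) and fell by 0.65 ± 0.16 at 1x (adjusted p = 0.0400), and the second call was lost without MASLD library 3 or 4 or 1x library 2 or 4 (adjusted p up to 0.182).

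Ppara, the fasting-response PPAR of hepatocytes, rose by 0.82 ± 0.21 with diet (edgeR adjusted p = 0.00857) and was lower by −1.03 ± 0.21 at 0.1x than without drug (adjusted p = 0.0116), the group in which Fabp1 was highest. Hnf4a, a hepatocyte transcription factor, fell by 0.65 ± 0.14 with diet (adjusted p = 0.00336). Over the 38 genes 2 were higher and 3 lower at 0.1x, where 6.08% and 7.09% of all genes were, shares near those of all genes. Slc27a3 is 1 of these 3, and since it passed the filter through the untreated MASLD libraries, its fall is not counted as a result. At 1x 2 of the 38 were called, both lower, where 1.62% of all genes were lower. At 0.1x Dbi, the acyl-CoA binding protein gene, was higher by 0.52 ± 0.16 (adjusted p = 0.0410) and at −0.02 with the trend removed, and it passed on leaving out 1 library only where that was 0.1x library 4. Apoc3 was higher by 0.63 ± 0.14 (adjusted p = 0.0138) and at 0.14 with it removed (adjusted p = 0.529), and its adjusted p was 0.0601 without MASLD library 4. Acsl4 was lower by −0.61 ± 0.15 (adjusted p = 0.0196) and at −0.47 with the trend removed (adjusted p = 0.0506). The call of Acsl4 was lost without any 1 of the MASLD libraries and without 0.1x library 4.

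For each gene the 3 with the most similar course were found by the root-mean-square (RMS) difference of log2 CPM, each gene centred on its own mean over the 12 libraries, among 10640 protein-coding genes of at least 1 CPM. Cd36 was nearest to Vnn1, a pantetheinase (RMS 0.289), then Mthfd1l and Adgrg2. Fabp4 was nearest to Plin2, which coats lipid droplets (RMS 0.149), then Rhoc and Srxn1. Plin2 was at 441, 389 and 402 CPM on the standard diet, 1099, 1143 and 1198 CPM on the MASLD diet, 895, 914 and 1134 CPM with 0.1x, and 556, 671 and 715 CPM with 1x. It rose by 1.48 ± 0.13 with diet and fell by 0.82 ± 0.13 at 1x (edgeR adjusted p = 2.41e-06 and 0.00473).

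Slc27a5 ran closest to Pde4c (RMS 0.0799), the prothrombin gene F2 (0.0875) and Alb (0.0965), the albumin gene. Slc27a2 ran closest to Ephx2 (0.0626) and Slc27a4 to Ctsd (0.0842). For Fabp2, Spc25 (0.275) came first and Ehhadh, a peroxisomal fatty acid oxidation enzyme, last of its 3 (0.345). Fabp1 was closest to Bet1 (0.156), Lpl to Abcc4 (0.488) and Vldlr to Dgkh (0.382).

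Fabp5 was nearest to genes of the major urinary proteins, Mup15 (RMS 0.458) and Mup17 (0.539), and then to Ces4a (0.597). Mup15 was at 696, 78.4 and 126 CPM on the standard diet, 419, 269 and 406 CPM on the MASLD diet, 2397, 1281 and 1029 CPM with 0.1x, and 708, 881 and 765 CPM with 1x. Standard-diet library 3 was above the other two for Mup15 as for Fabp5, and 0.1x library 1 was the highest of all. Mup genes are near-identical copies, so the counts of any 1 of them are uncertain. The likeness is a description over 12 libraries that share their groups.

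**Figure D4:**
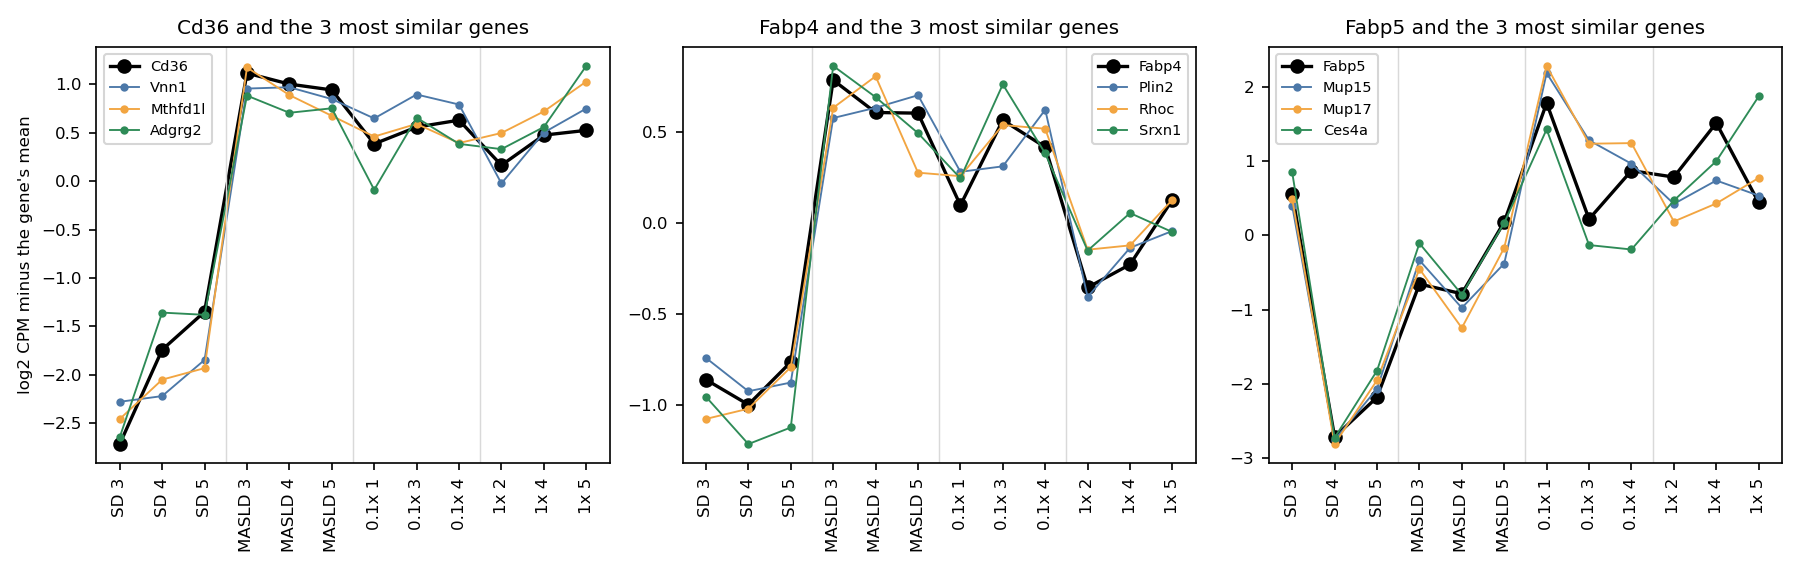
Log2 CPM minus each gene's mean (vertical axes, scaled separately) over the 12 libraries (horizontal axis, named by group and replicate, with SD for the standard diet) for Cd36, Fabp4 and Fabp5 and the 3 genes most similar to each by root-mean-square difference. Lines only join the points of 1 gene. Standard-diet library 3 stands above libraries 4 and 5 for Fabp5, Mup15, Mup17 and Ces4a.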

How the data were processed

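RNA from mouse liver was sequenced as stranded poly(A) libraries in read pairs, per the labels' protocols. Reads were aligned with STAR 2.7.3a to mm10, per the submitters' processing notes. Nothing read here names the counting tool, its strand setting or its annotation. As deposited by the authors, 1 table holds whole-number counts of 55471 gene IDs, of which 55230 matched GENCODE vM21.

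From these counts, edgeR 4.0.16 (R 4.3.3) was run on all 4 groups together, with filterByExpr, TMM factors, and quasi-likelihood tests adjusted by Benjamini-Hochberg over 13866 genes at 0.05. Scripts were tested on simulated data. Alternatives were DESeq2 1.42.0, other scaling factors and filters, the compared groups alone, a replicate block, leaving out each library, and removal of each library's trend with GC content and transcript length (natural splines, fitted values centred on 0). A first form of that removal also re-centred each library, which moved the higher genes with diet from 2164 of 4085 to 1586 of 4448. It is kept as an alternative, chosen after seeing the data. The text names the 10 genes, up to 2 genes per list, direction and comparison with the smallest adjusted p, Pparg, Angptl4 and Gpihbp1, and the 3 most similar genes; 1 gene that this rule names is not reported here. Members, lists and rules were chosen with earlier results of these data known. Transcripts were compared with BLAST 2.17.0.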

Additional observations from a re-analysis of the deposited data

How the results depend on the processing

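Fold changes of the 10 genes, 60 over the 6 comparisons, kept their direction and their side of the threshold in all 60 with DESeq2's size factors in edgeR, in 57 with DESeq2 or upper-quartile factors, in 57 when genes averaging 1 CPM or more were kept, in 48 without a filter, and in 47 with the GC and length trend removed. Depth limits Vldlr (from 32 counts in a library), Lpl (from 98) and Fabp4 (from 138). The cause of the moves below was not tested.

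At 0.1x against the MASLD diet 1826 genes were called, but 350 with the trend removed and 388 when that also re-centred each library. Of the 10 genes 1 was called, but 4 by DESeq2, 5 without a filter, 2 at a mean of at least 1 CPM, 5 with the compared groups alone, and 2 without the strongest-trend library of each dose (chosen after seeing the data). At 1x against the MASLD diet 431 genes were called, but 800 by DESeq2, 1131 without a filter, 1013 with the compared groups alone and 650 with re-centring, and of the 10 genes 5 rather than 1 without a filter or with the compared groups alone. Between the doses 1802 genes were called, but 617 with the trend removed, 560 with re-centring, 744 with the compared groups alone and 260 without the strongest-trend libraries, and in each of these edgeR called 0 of the 10 genes rather than 3 (2 to 4 at an unadjusted p under 0.05). At 0.1x against the standard diet 2872 genes were called, but 1660 with the compared groups alone. With re-centring 1249 of 3275 genes were higher at 0.1x and 1053 of 2822 at 1x against the standard diet, where 1366 of 2872 and 1374 of 2739 were without it. Against the MASLD diet 260 of 388 were higher at 0.1x and 386 of 650 at 1x with re-centring, where 843 of 1826 and 207 of 431 were without it.

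With the replicate number as a block in a fit of the compared groups alone, 880 genes and 2 of the 10 were called by edgeR at 0.1x against the MASLD diet (243 and 0 with the trend removed too), 12 genes and 0 of the 10 at 1x (33 and 0), and 1051 genes at 0.1x against the standard diet (589). At an unadjusted p under 0.05 these counts of 0 were 3 at 0.1x, and 7 and 6 at 1x. The doses share only the number 4, so between them the block was fitted over all 4 groups (chosen after seeing the data), where edgeR called 0 genes with and without the trend removed, and 1639 without and 1156 with it had an unadjusted p under 0.05. The numbers share no stated source, and 1 library of the 1x group carries another number in its library name than in its title, which was followed. Deviations of same-numbered libraries correlated by −0.215 to 0.0757, so these are given only as values. In the fit over all 4 groups Slc27a4 was at −0.005031 (−0.1749 with the trend removed), Fabp5 at 0.8118 (1.032) and Vldlr at −0.1666 (−0.4367). In the fits of the compared groups Lpl at 0.1x was at −0.152 (−0.03328 with the trend removed), and at 1x Fabp1 was at 0.1737 (0.003134) and Fabp2 at 0.06271.

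Leaving out 1 library gave 2654 to 3850 genes and 6 to 8 of the 10 with diet (4085 and 7 with all), 382 to 1599 and 0 to 3 at 0.1x, 83 to 396 and 0 to 1 at 1x, 210 to 1844 and 0 to 3 between the doses, 1790 to 2619 and 7 to 8 at 0.1x against the standard diet, and 1699 to 2559 and 6 to 7 at 1x against it. The lowest counts came without MASLD library 4 with diet, at 0.1x and at 1x, and without 1x library 2 between the doses.

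Directions that turned were of differences that did not pass, except Dbi at 0.1x (−0.0185 with the trend removed). With diet Slc27a2 was at 0.005041 with upper-quartile factors, 0.001287 without a filter and 0.01688 at a mean of at least 1 CPM. Without the strongest-trend libraries Fabp1 at 1x was at 0.136 and Fabp2 at 0.01439. Between the doses Slc27a2 was at −0.01658 with upper-quartile factors and −0.02017 with the trend removed (−0.02219 with re-centring). Slc27a4 was at −0.03523, at −0.003623 at a mean of at least 1 CPM, at −0.2004 (−0.2025) with the trend removed, and at −0.07896 without the strongest-trend libraries, where Slc27a5 was at −0.01423. Fabp5 was at 0.2045 (0.2068) and Vldlr at −0.1309 (−0.1338) with the trend removed. At 1x against the standard diet Slc27a4 was at −0.05298 (−0.1138), and −0.05903 with the block too.

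On leaving out 1 library, the ranges that crossed 0 were −0.06224 to 0.06098 for Slc27a2 and −0.1078 to 2.07 for Fabp5 with diet, −0.1029 to 0.5316 for Lpl at 0.1x, and −0.2375 to 0.1359 for Fabp1 and −0.348 to 0.01427 for Fabp2 at 1x. Between the doses they were −0.06637 to 0.1163 for Slc27a2, −0.07362 to 0.09587 for Slc27a4, −0.01735 to 0.2118 for Slc27a5, −0.4671 to 0.4053 for Fabp5 and −0.04718 to 0.4105 for Vldlr. For Slc27a4 at 0.1x against the standard diet the range was −0.04156 to 0.1278. Levels per length of Fabp4, Fabp5 and Lpl were higher with the principal transcript, a length chosen after seeing the data.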
